A study of Mus musculus with 18 samples.

Results

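Binding sites of 2 transcription factors were examined at 10 genes of retinoic acid signalling in mouse limb buds. Chromatin immunoprecipitation and sequencing had mapped Pitx1, a homeodomain factor of the hindlimb bud, in e11.5 hindlimbs. The same assay had mapped Tbx5, a T-box factor without which no forelimb forms, in e10.5 forelimbs. Both samples came from wild type embryos of CD1, an outbred strain, and were made with homemade antibodies (960A for Pitx1 and NP1723 for Tbx5). The series has 18 samples, and the histone mark and input samples were not analysed here. Only 1 sample per factor was at hand, so values carry no error between samples and the factors could not be tested against each other. Factor, limb, stage and antibody differ together and cannot be told apart.

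The deposited lists give summits, the highest points of the called peaks, on genome build mm10. A summit was counted for a gene when that gene was the nearest of 21883 protein-coding genes in the RefSeq annotation of GRCm38.p6 and lay within 100 kb. Summits inside a gene were given a distance of 0. The genes were chosen as the core of the pathway (Rara, Rarb, Rarg, Rdh10, Aldh1a2, Aldh1a3, Cyp26a1, Cyp26b1, Crabp1 and Crabp2). Earlier results of these data were known at the time, so the choice was not blind to binding. They held 87 of the 54941 Pitx1 summits and 23 of the 10273 Tbx5 summits. The score that the authors' files give for a summit was read as the −log10 q-value of its peak, for the reason given with the processing. It ranks peaks within a list and is not comparable between lists. The median score was 7.07 in the Pitx1 list and 8.29 in the Tbx5 list. Read depth is unknown, so the longer Pitx1 list cannot be read as more binding. All 95% intervals below are exact and cover the counting of summits only.

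Retinoic acid is made from vitamin A in steps. Retinol dehydrogenases such as Rdh10 oxidise retinol to retinaldehyde, and the retinaldehyde dehydrogenases Aldh1a2 and Aldh1a3 turn that into retinoic acid. Enzymes of the Cyp26 family of cytochromes P450 break it down, and the small cytosolic proteins Crabp1 and Crabp2 bind it. In the nucleus it binds the receptors Rara, Rarb and Rarg, which pair with retinoid X receptors on direct repeats of a short half-site. In the early limb bud the signal is known from the proximal side and the flank, Cyp26b1 removes it distally, and embryos without Rdh10 or Aldh1a2 activity have forelimb defects.

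The promoters of Rarb and Cyp26a1 are known as targets of retinoic acid itself, and their sequences are shown with the nearest summits. RefSeq promoter windows, from 250 bases before to 50 after a gene start in GRCm38.p6, were found for 7 of the 10 genes, with 11 windows in all. In 1 of the 11, that of Rarb, lay a Pitx1 summit, against 8.96% of 32851 windows of all genes, and none of the 11 held a Tbx5 summit, against 1.18%. Half-sites of retinoic acid receptors were searched on both strands as direct repeats with 5, 2 or 1 bases between them. A half-site was the motif AGGTCA, its variant spelled AGTTCA or the further variant spelled GGTTCA, in either place of the repeat. A repeat with 5 bases between was found in 2 of the 11 windows, those of Rarb and Cyp26a1, and in 20 windows in all, or 0.0609% of windows. Both repeats are made of the variant half-sites, and both promoters were known targets before the search. These 2 matches are therefore not an independent finding. The repeats with 2 or 1 bases between had no match in the 11 windows, against 0.210% and 0.100% of all windows. The windows of Rarb (chr14:16575427-16575726, minus strand) and Cyp26a1 (chr19:37697558-37697857, plus strand) are shown for these repeats, 5′ to 3′ on the gene's strand, with the half-sites in capitals.
Rarb: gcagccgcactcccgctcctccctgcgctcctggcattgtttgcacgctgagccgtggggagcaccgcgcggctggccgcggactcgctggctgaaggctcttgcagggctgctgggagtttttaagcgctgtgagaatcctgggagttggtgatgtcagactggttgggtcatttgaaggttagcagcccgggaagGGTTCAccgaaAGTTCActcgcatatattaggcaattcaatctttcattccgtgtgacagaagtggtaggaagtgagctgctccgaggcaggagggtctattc
Cyp26a1: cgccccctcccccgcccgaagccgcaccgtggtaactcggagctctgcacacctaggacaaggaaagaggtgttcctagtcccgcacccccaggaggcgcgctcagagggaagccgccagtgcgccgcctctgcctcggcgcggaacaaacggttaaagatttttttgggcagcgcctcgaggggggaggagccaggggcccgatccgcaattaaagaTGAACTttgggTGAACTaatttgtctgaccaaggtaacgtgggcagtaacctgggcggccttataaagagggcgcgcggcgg
Read on the strand in which the half-sites run forward, the repeats are on the gene's own strand in Rarb (chr14:16575513-16575529) and on the opposite strand in Cyp26a1 (chr19:37697776-37697792).
Rarb: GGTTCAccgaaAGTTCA
Cyp26a1: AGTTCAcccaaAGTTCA
Each repeat spans 17 bases. The Rarb repeat ran from 53 to 37 bp before the start, and the Pitx1 summit at position 16575549 lay 73 bp before the start, 20 bp from the repeat. Its score was low, 4.84, at rank 34749 of the Pitx1 list. The Cyp26a1 repeat ran from 32 to 16 bp before the start, and its nearest Pitx1 summit was 844 bp away with a score of 2.45. The nearest Tbx5 summits were 20828 bp from the Rarb repeat and 61356 bp from the Cyp26a1 repeat. Of the 20 windows with this repeat, 2 held a Pitx1 summit and 0 a Tbx5 summit. The letters TAATCC, a site type of Pitx factors, were in 0 of the 11 windows, against 7.06% of all windows. AGGTGT, a T-box half-site, was in 3 of them, those of Aldh1a2, Cyp26a1 and Rarg, against 13.7%. These matches describe letters in the windows and not binding, and sequence around the other summits was not used here.

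All 10 genes had Pitx1 summits, whereas 55.1% of all protein-coding genes did, and 7 of the 10 had Tbx5 summits, whereas 18.8% of all genes did. Aldh1a3, Cyp26a1 and Cyp26b1 had Pitx1 summits and no Tbx5 summit, a combination found at 38.2% of all genes, and the other 7 had both, as did 16.9%. These counts depend on the length of the Pitx1 list. With that list cut to the length of the Tbx5 list, 7 of the 10 genes had Pitx1 summits. Rdh10, Aldh1a3 and Cyp26a1 then had 0 and Cyp26b1 had 1. The second Pitx1 list, described below, also left 7 genes. The share of all genes was not counted for either list. The median was 6.50 Pitx1 and 2 Tbx5 summits over the 10 genes, against 1.00 and 0 over all genes. A gene's domain, meaning all positions whose summits would be counted for it, was longer here, with a median of 90.1 kb against 45.8 kb. Per 100 kb of domain the 10 genes held 5.54 Pitx1 summits (95% interval 4.43 to 6.83), against 2.36 at all genes, and 1.46 Tbx5 summits (0.928 to 2.2), against 0.414. Rarb supplied 31 of the 87 Pitx1 and 11 of the 23 Tbx5 summits, and without it the densities were 6.83 and 1.46.

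**Figure D1:**
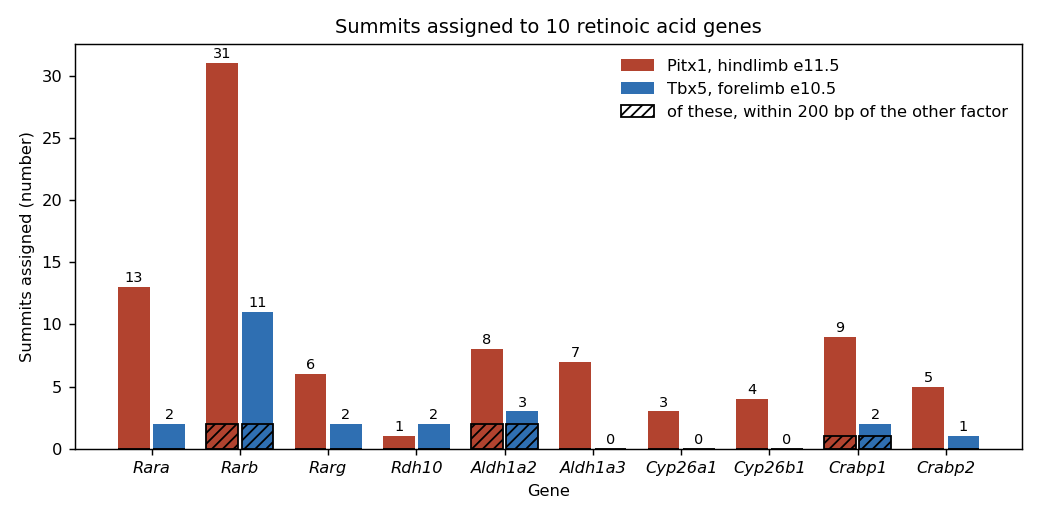
Number of summits (vertical axis) assigned to each gene (horizontal axis), Pitx1 in hindlimbs left of Tbx5 in forelimbs, with the hatched part within 200 bp of a summit of the other factor. Rarb stands out with 31 Pitx1 and 11 Tbx5 summits, and in these full lists Rdh10 has more Tbx5 (2) than Pitx1 (1) summits.

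In the main counting the receptors carried most of the sites, and also 837 of the 1572 kb of domain of the 10 genes. By nearest gene start they did not, with 7, 13 and 6 of 60 Pitx1 summits at Rara, Rarb and Rarg. Their Tbx5 counts were then 1, 3 and 2 of 13. With the Pitx1 list cut to the length of the Tbx5 list they held 1, 3 and 3 of 17, again not most. The following values are from the main counting. Together the 3 genes held 50 Pitx1 summits, or 5.97 per 100 kb (4.43 to 7.87), and 15 Tbx5 summits, or 1.79 per 100 kb (1.00 to 2.95). Nearly all lay inside the genes, namely 45 of the 50 and 13 of the 15. At all protein-coding genes 60.6% of Pitx1 and 60.5% of Tbx5 summits lay inside a gene. The receptor gene bodies also fill most of their domains, 651 of 752 kb at Rarb, 47.1 of 51.6 kb at Rara and 22.6 of 34.3 kb at Rarg.

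Rarb, the receptor whose own transcription responds to retinoic acid, is a long gene (chromosome 14, 16430839 to 17082331, 651 kb). Its 31 Pitx1 summits were exceeded by 95 of the 21883 genes and its 11 Tbx5 summits by 31. Per 100 kb it stood out less. The Pitx1 density of 4.12 (2.80 to 5.86) was reached by 22.2% of genes and the Tbx5 density of 1.46 (0.731 to 2.62) by 7.89%. Counted by nearest gene start instead of gene body, Rarb held 13 Pitx1 and 3 Tbx5 summits. The strongest Pitx1 summit of all 10 genes lay here at position 16965211, with a score of 187 and rank 360, inside the gene and 390 kb upstream of the start shown above. A second strong one, at position 16554766 with a score of 157 and rank 547, lay 20.7 kb downstream of that start. The next highest scored 40.2, and the median of the 31 was 6.49, below that of the list. The strongest Tbx5 summit of Rarb scored 46.8 at position 16935259, and the nearest Pitx1 summit was 19678 bp away. A group of 5 Pitx1 summits with scores of 3.35 to 5.92 and no Tbx5 summit spanned 4.09 kb from position 16571455 to the promoter summit. Another group of 5 Pitx1 and 2 Tbx5 summits spanned 10.3 kb around the summit of score 187.

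Rara (chromosome 11, 98927800 to 98974942), the most widely expressed of the receptors, held 13 Pitx1 summits and 2 Tbx5 summits in a domain of only 51.6 kb. Its Pitx1 density of 25.2 per 100 kb (13.4 to 43.1) was reached by 1.22% of genes. None of the 13 was in the top 10% of the Pitx1 list. The highest scored 29.0 and lay 1.92 kb outside the gene at position 98925883, another with a score of 6.49 lay 7 bp outside the lower end, and 6 of the 13 were at or above the list median. The Tbx5 summits scored 17.0 (position 98936008) and 4.67 (position 98968811). A pair of the Pitx1 summits also lies inside Gm46294, a gene model within Rara, and was counted for both.

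Rarg (chromosome 15, 102234938 to 102257522), the receptor of limb mesenchyme and later cartilage, held 6 Pitx1 and 2 Tbx5 summits in 34.3 kb. Their densities, 17.5 (6.42 to 38.1) and 5.83 (0.706 to 21.1) per 100 kb, were reached by 2.51% and 1.06% of genes. The highest Pitx1 score was 61.9 at position 102249054 inside the gene. The strongest Tbx5 summit, with a score of 29.1, lay 742 bp before the upstream gene start, and a Pitx1 summit with a score of 29.9 lay 1471 bp before it.

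**Figure D2:**
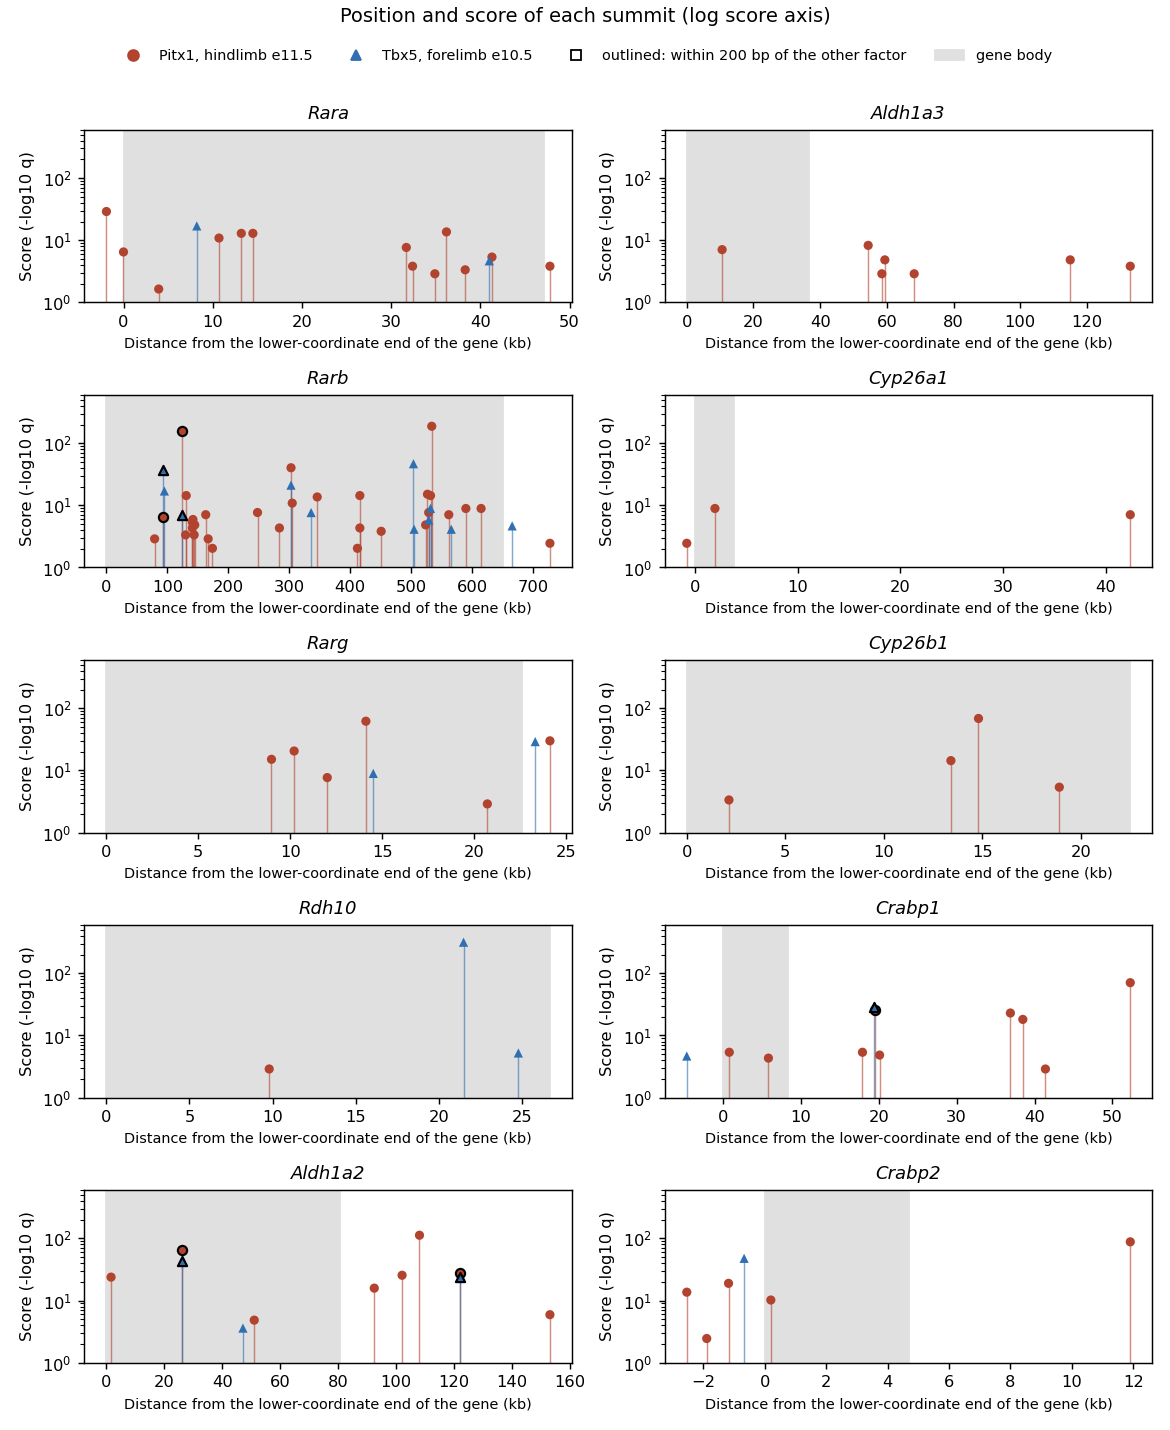
Each panel shows 1 gene, with the distance of each summit from the lower-coordinate end of the gene in kb (horizontal axis) and its score as −log10 q on a log axis (vertical axis), Pitx1 as circles and Tbx5 as triangles, the gene body shaded and summits within 200 bp of the other factor outlined. The sites of Rarb spread through the gene, whereas the Rdh10 panel has a single strong site, of Tbx5, at 317.

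The 3 synthesis genes held 16 Pitx1 summits, or 3.91 per 100 kb (2.24 to 6.35), and 5 Tbx5 summits, or 1.22 per 100 kb (0.397 to 2.85). Rdh10, which catalyses the first oxidation step (chromosome 1, 16105882 to 16132550), held the strongest Tbx5 summit of all 10 genes, with a score of 317 at position 16127361 and rank 36 of 10273, inside the gene. A second Tbx5 summit scored 5.23. Its only Pitx1 summit scored 2.89, rank 47939 of 54941, and lay 11678 bp from the strong Tbx5 site. In the full lists Rdh10 was the only one of the 10 genes with fewer Pitx1 than Tbx5 summits, which depends on the lists and the counting. With the Pitx1 list cut to the length of the Tbx5 list, Rara (1 against 2) and Rarb (3 against 11) also had fewer. With every summit within 100 kb counted, Rdh10 had 7 Pitx1 and 6 Tbx5 summits.

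Aldh1a2, the main retinoic acid synthesising enzyme of the early embryo (chromosome 9, 71215789 to 71296243), held 8 Pitx1 and 3 Tbx5 summits. Strong Pitx1 sites lay on both sides of its upper end. The highest, 113 at position 71323636 and rank 999, was 27.4 kb outside the gene, and the next, 65.2 at position 71241959, was inside it. Of the 8, 6 were at or above the list median, and 1 of these lay 1602 bp after the gene start with a score of 23.8. The Tbx5 summits scored 42.6, 23.7 and 3.60. Per 100 kb the values were 4.09 (1.77 to 8.06) for Pitx1 and 1.53 (0.316 to 4.48) for Tbx5.

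Aldh1a3, the related enzyme known mainly from head and eye (chromosome 7, 66390892 to 66427477), held 7 Pitx1 summits and no Tbx5 summit. Their scores ran from 2.89 to 8.28, 2 of the 7 were at or above the list median, and 6 lay outside the gene. The nearest Tbx5 summit to any of the 7 was 442933 bp away. The outermost, at 96.6 kb with a score of 3.83, was the closest of all counted summits to the limit of 100 kb.

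The breakdown enzymes were the nearest gene of Pitx1 summits but of no Tbx5 summit within 100 kb. A Tbx5 summit within 100 kb of Cyp26a1 was nearer to Exoc6. Together the breakdown enzymes held 7 Pitx1 summits, or 2.92 per 100 kb (1.17 to 6.02), and 0 Tbx5 summits in 240 kb. The upper limit for Tbx5, 1.54 per 100 kb, excludes neither the 1.46 of the 10 genes together nor the 0.414 of all genes. Only 18.8% of all protein-coding genes had a Tbx5 summit. The second Pitx1 list had 0 summits at both enzymes. The Pitx1 list cut to the length of the Tbx5 list had 0 at Cyp26a1 and 1 at Cyp26b1. Cyp26b1, which clears retinoic acid from the distal limb bud (chromosome 6, 84571414 to 84593908), held 4 Pitx1 summits, all inside it, with scores of 3.35, 14.4, 68.5 and 5.37. The strongest lay at position 84586170, 7.64 kb after the gene start. Beyond the limit of 100 kb Cyp26b1 was the only one of the 10 genes with further summits for which it was the nearest gene. These were 5 Pitx1 summits, the closest at 129 kb with a score of 4.32, and 3 Tbx5 summits, the closest at 140 kb with a score of 7.64, all beyond the lower end of the gene. Among them a Pitx1 summit with a score of 90.5 at position 84410203 and a Tbx5 summit with a score of 28.2 lay 93 bp apart, 161 kb from the gene. Cyp26a1 (chromosome 19, 37697738 to 37701536), a gene induced by retinoic acid, held 3 Pitx1 summits with scores of 2.45, 8.90 and 7.07. They lay 806 bp outside its lower end, inside it and 38.6 kb outside its upper end.

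The binding proteins were short genes with many sites. Together they held 14 Pitx1 summits, or 16.3 per 100 kb (8.92 to 27.4), the highest density of the 4 roles. Their 3 Tbx5 summits came to 3.50 per 100 kb (0.721 to 10.2). Crabp1 (chromosome 9, 54764748 to 54773110) held 9 Pitx1 and 2 Tbx5 summits, and 7 of the 9 lay outside it on the side of its upper end. The strongest Pitx1 summit scored 70.8 at position 54817047, 43.9 kb outside, and the Tbx5 summits scored 29.1 and 4.67. Crabp2, which carries retinoic acid to the receptors (chromosome 3, 87948693 to 87953372), held 5 Pitx1 summits in 17.5 kb, a density of 28.5 per 100 kb (9.25 to 66.5) reached by 0.973% of genes. Of these, 4 lay from 2.54 kb outside its lower end to 0.197 kb inside it, with scores of 13.6, 2.45, 18.9 and 10.2. The single Tbx5 summit, with a score of 47.8 at position 87948020, lay among these 4, 673 bp outside the same end and 505 bp from the nearest of them. The strongest Pitx1 summit of Crabp2 scored 88.1 and lay 7.23 kb outside its upper end.

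**Figure D3:**
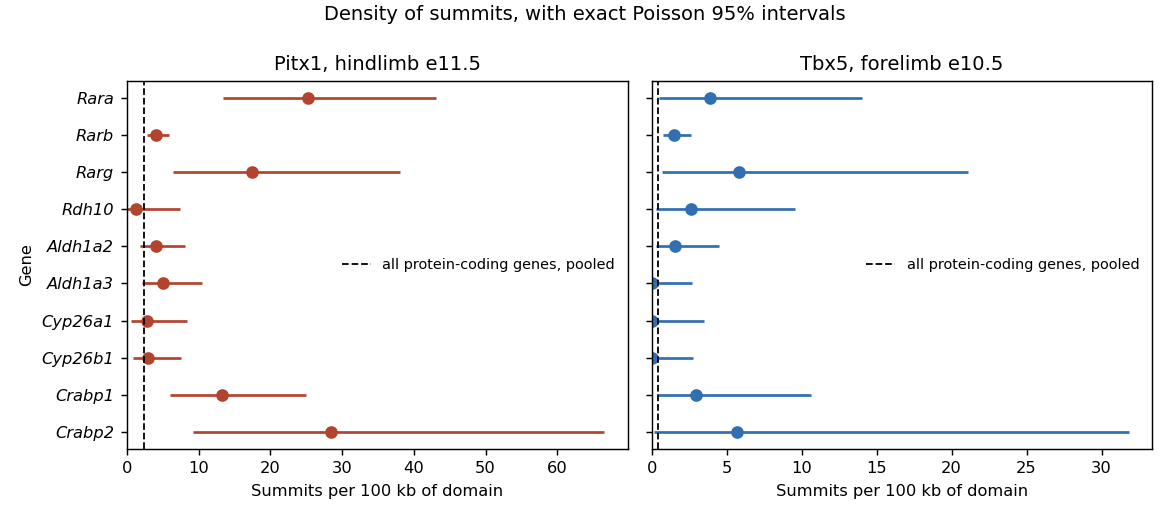
Summits per 100 kb of domain (horizontal axis) for each gene (vertical axis), Pitx1 left and Tbx5 right, with exact Poisson 95% intervals as lines and the value of all protein-coding genes pooled as a dashed line (2.36 for Pitx1 and 0.414 for Tbx5). The Pitx1 intervals of Rara, Rarb, Rarg, Crabp1 and Crabp2 lie above the dashed line, and those of the other 5 genes include it.

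Sharing between the factors within 200 bp was near the background for the Pitx1 summits of these genes. For the Tbx5 summits it was lower under nearest-gene counting, with an interval too wide to tell it from the background. A summit was called shared when one of the other factor lay within 200 bp. Of the Pitx1 summits, 5 of 87, or 5.75% (1.89 to 12.9), were shared, against 6.78% at all protein-coding genes. Of the Tbx5 summits, 5 of 23, or 21.7% (7.46 to 43.7), were shared, against 38.4%, a value inside the interval. The 5 pairs lay at 3 of the 10 genes, whereas 8.84% of all genes had a shared Tbx5 summit. Aldh1a2 held a pair 70 bp apart inside the gene, with scores of 65.2 for Pitx1 and 42.6 for Tbx5, and another 2 bp apart and 41.4 kb outside it, with 28.1 and 23.7. Crabp1 held a pair 28 bp apart, 11.1 kb outside it, with 25.5 and 29.1. At Rarb the scores within a pair were unequal. The pair 81 bp apart had 157 for Pitx1 and 7.02 for Tbx5, and the pair 78 bp apart had 6.49 and 36.7.

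Near pairs were as numerous as shared ones. Another 5 Tbx5 summits, or 21.7% (7.46 to 43.7), lay between 200 and 500 bp from a Pitx1 summit, against 9.61% at all genes, a value also inside the interval. They were 3 at Rarb (295, 402 and 439 bp), 1 at Rara (290 bp) and 1 at Rarg (343 bp). Within 500 bp the share of Tbx5 summits with a Pitx1 neighbour was therefore 43.5% (23.2 to 65.5), against 48.0%, and within 1000 bp 52.2% (30.6 to 73.2), against 54.2%. The median distance to the nearest Pitx1 summit was 729 bp for the 23 Tbx5 summits, against 600 bp at all genes. Of the 87 Pitx1 summits, 5.75% (1.89 to 12.9) lay between 200 and 500 bp from a Tbx5 summit. The value at all genes, 1.67%, was below that interval. Within 1000 bp the Pitx1 share was 16.1% (9.09 to 25.5), against 10.1%, a value inside the interval. The median distance from Pitx1 to Tbx5 summits was 10594 bp, against 48520 bp at all genes. These differences were not tested. With every summit within 100 kb counted whichever gene was nearest, 43.8% of 32 Tbx5 summits were shared at 200 bp. This is not below the 38.4% at all genes under nearest-gene counting, so the lower share depends on the counting. The share at all genes was not counted for this setting.

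**Figure D4:**
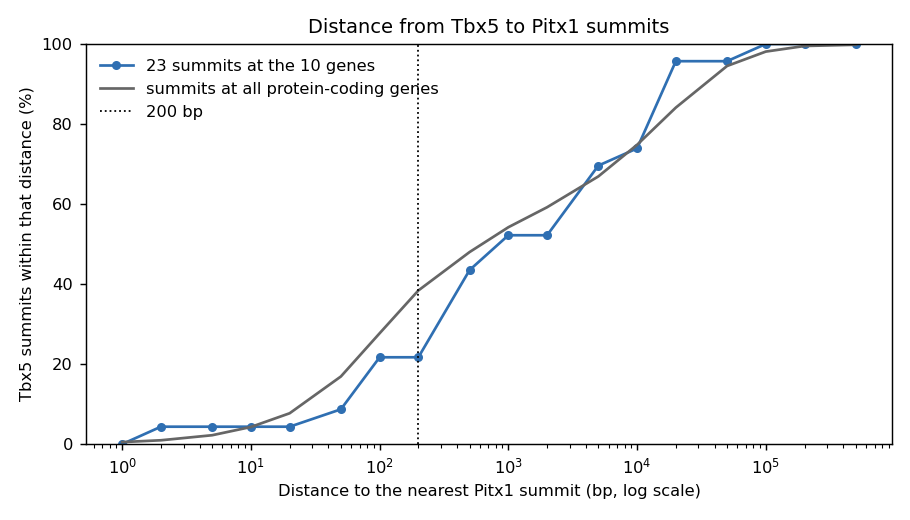
Share of Tbx5 summits in percent (vertical axis) with a Pitx1 summit within the distance in bp on the horizontal log axis, for the 23 summits at the 10 genes (points) and for summits at all protein-coding genes (grey line). The points lie below the grey line at 200 bp, 21.7% against 38.4%, and close to it at 1000 bp, 52.2% against 54.2%.

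Scores at the 10 genes resembled those of the lists. At or above the list median were 46 of the 87 Pitx1 summits, or 52.9% (41.9 to 63.7), against 49.5% at all genes, and 13 of the 23 Tbx5 summits, or 56.5% (34.5 to 76.8), against 50.7%. In the top 10% of each list were 9 Pitx1 summits, or 10.3% (4.84 to 18.7), against 9.48%, and 3 Tbx5 summits, or 13.0% (2.78 to 33.6), against 9.94%. Rarb held 3 of the 9, Aldh1a2 2, and Rarg, Cyp26b1, Crabp1 and Crabp2 1 each. The 3 Tbx5 summits were 1 each at Rdh10, Rarb and Crabp2.

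A second Pitx1 list deposited with the first holds 17783 of its summits, and the sources used here do not say how they were picked. It held 24 of the 87 Pitx1 summits, or 27.6% (18.5 to 38.2), against 30.9% at all protein-coding genes. By gene it held 6 of 31 at Rarb, 4 of 8 at Aldh1a2, 4 of 6 at Rarg, 3 of 13 at Rara, 3 of 9 at Crabp1, 3 of 5 at Crabp2 and 1 of 7 at Aldh1a3, and none of those at Rdh10, Cyp26a1 and Cyp26b1. Because the list keeps mostly high scores, the shares were also taken within 5 score groups of equal size. At the shares of the whole list in these groups, 27.9 of the 87 would be in it, and 24 were. The widest gap was in the middle group, with 0 of 19 against 19.9%. Summits tied at the edges of that group, 5.37 and 8.90, were split by chromosome order. The 19 therefore depends on that order. The weak summit in the Rarb promoter, with its score of 4.84, was in the second list, and the summit of score 68.5 inside Cyp26b1 was not.

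**Figure D5:**
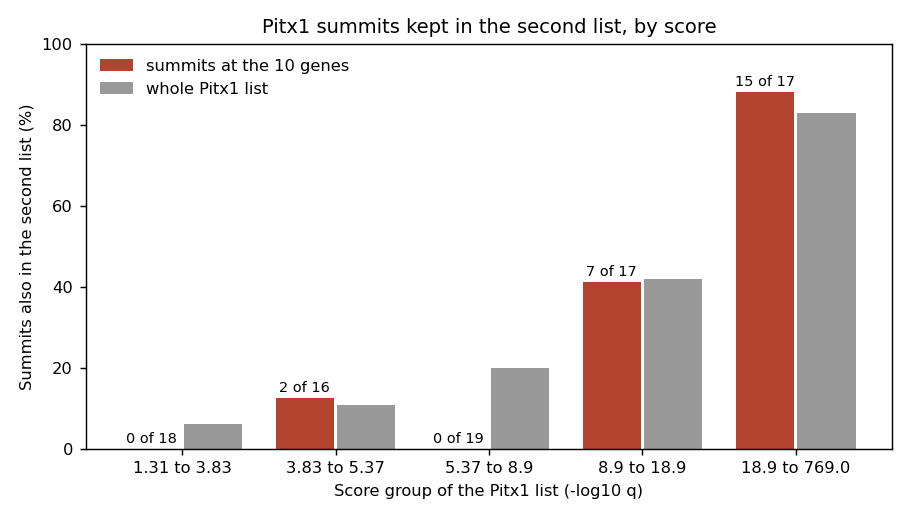
Share of Pitx1 summits in percent that are also in the second list (vertical axis) in 5 groups of rising score as −log10 q (horizontal axis), at the 10 genes (red, with counts) and in the whole Pitx1 list (grey). The share was 15 of 17 at the 10 genes in the highest group, or 88.2% against 82.9%, 0 of 19 in the middle group, against 19.9%, and 0 of 18 in the lowest, against 6.15%.

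Other genes of the pathway gave the setting. A list of 23 held the vitamin A carriers, transporters and storage enzymes, other dehydrogenases and reductases, Cyp26c1, the retinoid X receptors, Fabp5 and receptor cofactors. Of these 23, 17 had Pitx1 summits, against 55.1% of all genes, with 73 in all or 2.99 per 100 kb. Tbx5 summits were at 5 of the 23, against 18.8% of all genes, with 11 in all or 0.450 per 100 kb. Both densities were closer to those of all genes (2.36 and 0.414) than to those of the 10 genes, and no test compared the lists. The retinoid X receptor gene Rxra held 9 Pitx1 summits, none scoring above 8.90, and no Tbx5 summit. The coactivator gene Ncoa1 held 9 Pitx1 summits, with a highest score of 67.4, and 2 Tbx5 summits. Stra6, which encodes the receptor for the retinol carrier, held 8 Pitx1 and 2 Tbx5 summits, and both Tbx5 summits were shared. Of the 11 Tbx5 summits in all, 7 were shared, against 38.4% at all genes. Rxrb, Rbp4, Lrat, Dhrs9, Aldh1a7 and Adh1 had none of either factor.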

How the data were processed

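Chromatin immunoprecipitation and sequencing of Pitx1 (hindlimb, e11.5) and Tbx5 (forelimb, e10.5) was analysed from 3 deposited summit lists, 1 sample per factor. HOMER, MACS2 2.1.1.20160309, Bowtie2 2.2.6 and Bowtie 1.1.2 are named, without roles, per the submitters' processing notes, and the build is mm10. The deposited score was read as the −log10 q-value that MACS2 writes, because no value falls under 1.30, the −log10 of 0.05 (lowest 1.31 in the Pitx1 list and 1.42 in the Tbx5 list). The sources used here do not give the control library, read depth or any pooling of replicates. Names of the Tbx5 peaks contain "rep2". The second Pitx1 list also carries a further score by the authors and distances, which are unexplained and were not used.

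Summits were assigned with pandas 2.3.3 to the nearest protein-coding gene of GRCm38.p6 within 100 kb, and a summit equally near several genes counted for each. A gene's domain runs halfway to its neighbours, at most 100 kb. Intervals are Clopper-Pearson for shares and Poisson for counts, both exact. Assignment and sharing were tested on simulated data. Motifs were searched in RefSeq promoter windows only. The alternatives changed the distance limit, gene types, point of reference, score threshold, Pitx1 list and sharing distance. Gene starts came from the promoter table, or both gene ends where it lacks the gene. The members and lists were chosen with earlier results of these data known. All 10 genes are named. Of their summits, the highest per factor and the shared pairs are given, with further ones picked after their values were seen. Of other pathway genes, those with most summits and those with none are named, except for 1 gene that is not reported here.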

Additional observations from a re-analysis of the deposited data

How the results depend on the processing

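Of 10 planned settings and 2 added after the data were seen, 6 moved at least 1 summary value. A count was taken as unmoved within 1.5 times its value, and a share or density within its own 95% interval, which is wide for the Tbx5 shares. By these limits 61 of 77 comparisons were unmoved, among them sharing within 500 bp, which gave 10 of 87 for Pitx1 and 43.5% for Tbx5. With scores at or above the list medians the 10 genes held 46 Pitx1 and 13 Tbx5 summits, at 2.93 and 0.827 per 100 kb, and 47.8% of the Pitx1 summits were in the second list. The second Pitx1 list left 24 summits, 1.53 per 100 kb, of which 16.7% were shared. A Pitx1 list cut to the length of the Tbx5 list left 17, 1.08 per 100 kb, of which 23.5% were shared. These lists are shorter by construction. Assignment to the nearest gene start left 13 Tbx5 summits, with Rarb at 13 Pitx1 and 3 Tbx5. Sharing within 1000 bp gave 16.1% for Pitx1 and 52.2% for Tbx5. Counting every summit within 100 kb whichever gene was nearest, an added setting, gave 135 Pitx1 summits and a shared share of 43.8% for Tbx5. Of 160 counts per gene, 111 stayed within 1.5 times and 49 did not. The 111 include Tbx5 counts of 0 at Aldh1a3, Cyp26a1 and Cyp26b1, which settings that only remove summits could not raise. With genes of every type, Pitx1 counts fell to 1 at Aldh1a3, 1 at Cyp26a1 and 5 at Crabp1. Within 20 kb they fell to 2 at Aldh1a3, 4 at Aldh1a2 and 5 at Crabp1. In each of these settings the other 17 counts per gene were unmoved, the Tbx5 counts of 0 among them. No paired analysis was possible because each factor has 1 sample.

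Read depth and replicate error are unknown, which limits every count of 0 and every difference between the factors to these lists.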

Other observations

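Summits near a gene are not always nearest to it. Within 100 kb of Rdh10 lay 7 Pitx1 and 6 Tbx5 summits, of which 6 and 4 were nearer to other genes such as Stau2, Rpl7 and 4930444P10Rik. Around Rara 10 of 23 Pitx1 summits were nearer to other genes, 5 of them to Igfbp4, and around Cyp26a1 7 of 10, of which 4 were nearer to Exoc6 and 2 to Cyp26c1. Around Aldh1a3 no Tbx5 summit lay within 100 kb whichever gene was nearest, and around Cyp26b1 none either. Around Cyp26a1 there was 1, nearer to Exoc6.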
